A study of Mus musculus with 2 samples.

Results

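The 10 genes described here are grouped as restraints on WNT signalling, although the roles of Dkk2 and Dkk3 are less uniform, as given below. They are the secreted antagonists Wif1, Dkk1, Dkk2, Dkk3, Sfrp1, Sfrp2 and Frzb, and the feedback genes Notum, Nkd1 and Axin2. They were chosen by symbol, with earlier results of these data known. All 10 were matched to an NCBI gene number among the 41709 entries of the deposited tables. The data come from whole lungs of C57BL/6 mice at E14.5, a stage of active branching, and consist of 2 libraries of polyadenylated RNA, each from a pool of 7 lungs. The first came from wildtype controls, and the other is labelled as a knockdown of Prmt5, with Shh and Prmt5 in its title. The labels do not say how or in which cells Prmt5 was lowered, nor whether Shh was altered.

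WNT proteins are lipid-bearing ligands that bind Frizzled receptors together with LRP5 or LRP6, which stabilises beta-catenin and lets TCF/LEF factors switch on target genes. Cells limit the signal outside and inside the cell. WIF1 and the SFRP proteins, FRZB among them, bind the ligand, DKK1 and DKK2 block the LRP co-receptors, NOTUM removes the lipid from the ligand, NKD1 binds Dishevelled, and AXIN2 is a scaffold of the complex that marks beta-catenin for destruction. Axin2, Nkd1 and Notum are themselves switched on by the pathway in many tissues, and Axin2 is widely used as a read-out of it. In the branching lung, WNT ligands are made by both epithelium and mesenchyme, and the signal helps to specify the lung and to keep its mesenchyme growing.

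The DNA just before a RefSeq transcript start is shown for 3 of the genes that differ most between the libraries, Axin2 on the lower side and Dkk2 and Frzb on the higher side. Promoter windows from RefSeq (GRCm38.p6, which is mm10) were used for 7 of the 10 genes, and none was used for Dkk3, Sfrp1 and Notum. Each run below covers the 250 bases before that start, read along the gene. The start used for Frzb is the outer end of the gene, whereas the one for Dkk2 lies 26 bases and the one for Axin2 2521 bases inside the gene's outermost annotated start, so the Axin2 stretch lies within its gene and is not the DNA before the outermost start. The regions are chr11:108920099-108920348 on the plus strand for Axin2, chr3:132085042-132085291 on the plus strand for Dkk2 and chr2:80447397-80447646 on the minus strand for Frzb. Capitals mark the letters CTTTGA on either strand, the core bound by TCF/LEF factors, and TATAAA on either strand, the TATA box.
Axin2: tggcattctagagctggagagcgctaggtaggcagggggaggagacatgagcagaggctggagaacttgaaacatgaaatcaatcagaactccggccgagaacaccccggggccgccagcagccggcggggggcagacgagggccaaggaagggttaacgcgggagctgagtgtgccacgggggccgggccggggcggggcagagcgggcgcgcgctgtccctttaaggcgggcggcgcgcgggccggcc
Dkk2: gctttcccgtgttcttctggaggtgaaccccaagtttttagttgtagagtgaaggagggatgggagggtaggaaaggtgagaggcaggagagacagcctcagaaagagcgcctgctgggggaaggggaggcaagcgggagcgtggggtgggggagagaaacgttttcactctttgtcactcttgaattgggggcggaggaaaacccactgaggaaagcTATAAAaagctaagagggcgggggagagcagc
Frzb: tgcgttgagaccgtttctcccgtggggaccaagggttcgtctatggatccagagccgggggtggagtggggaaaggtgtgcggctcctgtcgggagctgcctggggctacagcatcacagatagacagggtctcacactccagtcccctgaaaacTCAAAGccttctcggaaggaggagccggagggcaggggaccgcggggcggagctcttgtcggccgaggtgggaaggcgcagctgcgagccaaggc
Frzb held 1 CTTTGA match, on the opposite strand and starting at base -95 from the start, and Dkk2 held a TATA box at base -32. The Axin2 stretch, before this internal start, had neither set of letters. Of all 32851 windows of 300 bases, 16% held CTTTGA and 13.6% held TATAAA, so single matches are common. Dkk1 had 2 CTTTGA matches and a TATA box at base -54, and Wif1 had TATAAA on the opposite strand at base -232. The GLI letters GACCACCCA, searched on both strands because Shh differed so strongly between the libraries, were in 0.253% of all windows and in none of the 7. The Axin2 window was rich in CpG, with 31 against a median of 7 over all windows, whereas Dkk2 had 11 and Frzb 20. The Nkd1 window (6 CpG) is not printed, because its bases after the start were not found in a GENCODE transcript of that gene.

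Counted reads numbered 22581490 for the control and 25829281 for the knockdown. Values below are reads, levels per gene length (FPKM, as deposited), or the log2 ratio of knockdown over control after TMM scaling with its 95% counting interval. With 1 library per genotype there is no spread between replicates and no p-value, and every ratio describes these libraries. A gene counted as measured with at least 50 reads in 1 library, and as higher or lower when it differed by 1.5-fold or more with an interval that left out a ratio of 1. These 2 conditions together are called the size rule. Prmt5 itself had 2704 and 2127 reads (log2 -0.43, -0.51 to -0.35), which did not reach that size. Shh had 1124 and 109 reads (log2 -3.44, -3.75 to -3.17).

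The knockdown library also differed in which tissues its transcripts mark, and this touches every result below. Lung markers were present in both libraries but lower in the knockdown library. Of the 12 epithelium genes, 9 were lower with none higher (median log2 -1.96), with Nkx2-1 at 7550 and 895 reads. Of the 8 lung mesenchyme genes, 6 were lower with none higher (median -1.23), with Tbx4 at 7324 and 1863 reads. Endothelium genes had 2 of 6 lower (median -0.55), and smooth muscle genes 2 lower and 1 higher of 5 (median -0.23). All measured genes of the liver (6, median 7.40), heart muscle (7, median 7.71), skeletal muscle (6, median 5.41), red blood cell (6, median 3.32), adrenal cortex (4, median 4.65), mesothelium (5, median 1.43) and neighbouring foregut organ (7, median 3.54) lists were higher. The liver list took 0.00525% of the control reads and 0.891% of the knockdown reads, and the heart muscle list 0.0059% and 0.36%. Neuron and glia genes had 5 of 6 higher (median 1.52), fibroblast genes such as Twist1 and Postn 4 of 5 (median 2.31), and cartilage genes 2 higher and 1 lower of 5 (median 0.42). Some of the higher markers, the 2 higher cartilage genes among them, passed the read minimum only through the knockdown library. Pax1, Tagln and Matn1 were the listed markers with 0 reads in the control. In RNA of whole pools, fewer cells of a type and less RNA per cell cannot be told apart. Nor can a gene's reads from lung be told apart from those of other organs.

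**Figure D1:**
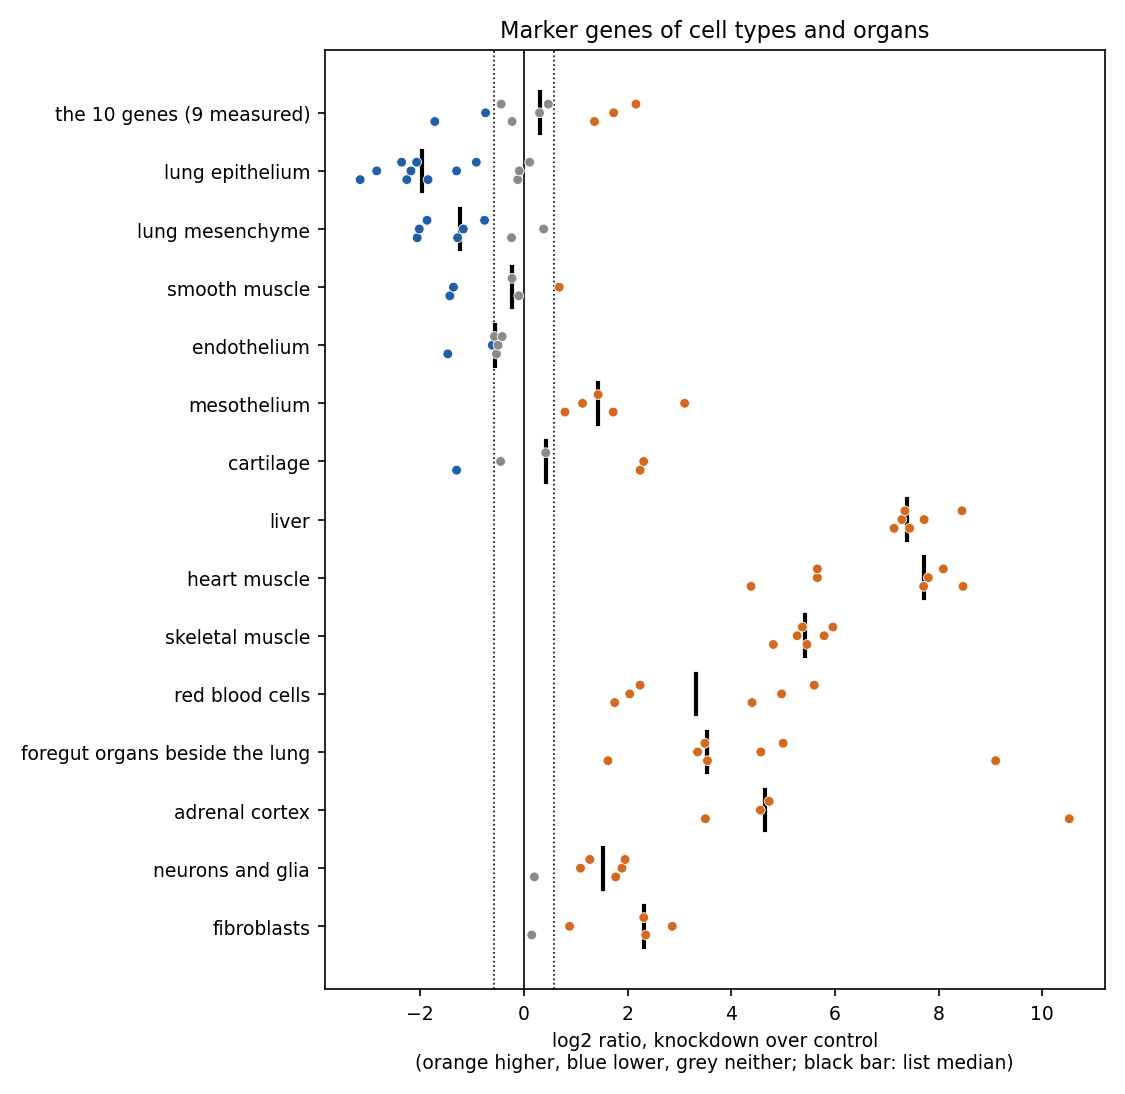
Log2 ratio of knockdown over control (x axis) for each measured gene of the marker lists (rows), with the 10 genes on top; each point is 1 gene, the black bar is the list median and dotted lines mark a ratio of 1.5 and its inverse. Lung epithelium (median -1.96) and lung mesenchyme (-1.23) lie to the left and liver (7.40) and heart muscle (7.71) far to the right. Pax1, at 0 control reads, is drawn at a fitted value that depends on the prior count. Some points to the right passed the read minimum only through the knockdown library, in which they were high. The row named fibroblasts is the head and limb-type fibroblast list.

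Of the 9 genes measured, 3 antagonists were higher (Sfrp1, Dkk2 and Frzb), 2 feedback genes were lower (Axin2 and Nkd1), and Sfrp2, Dkk3, Wif1 and Notum did not reach the size rule. Over all 14569 measured genes, 20.7% were higher and 12.3% lower, against 33.3% and 22.2% of these 9, a gap of about 1 gene in each direction. The genes and the size rule were chosen with earlier results of these data known. Frzb passed the read minimum only through the library in which it was high. The 9 genes had a median log2 ratio of 0.30, beside -0.01 over all measured genes. The genes called higher were antagonists and those called lower were feedback genes, but Wif1 (-0.23) lay below 0 and its ratio could not be separated from that of Notum. The 6 measured antagonists had a median of 0.92, which was 0.47 with a minimum of 200 reads, without Frzb, and 1.36 with a minimum of 10, with Dkk1 added. Of these 6, 5 lay above 0, and the 3 feedback genes a median of -0.74, with none above 0. Lung markers were lower and other organs' markers higher in the same library, and their part in either direction was not tested.

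**Figure D2:**
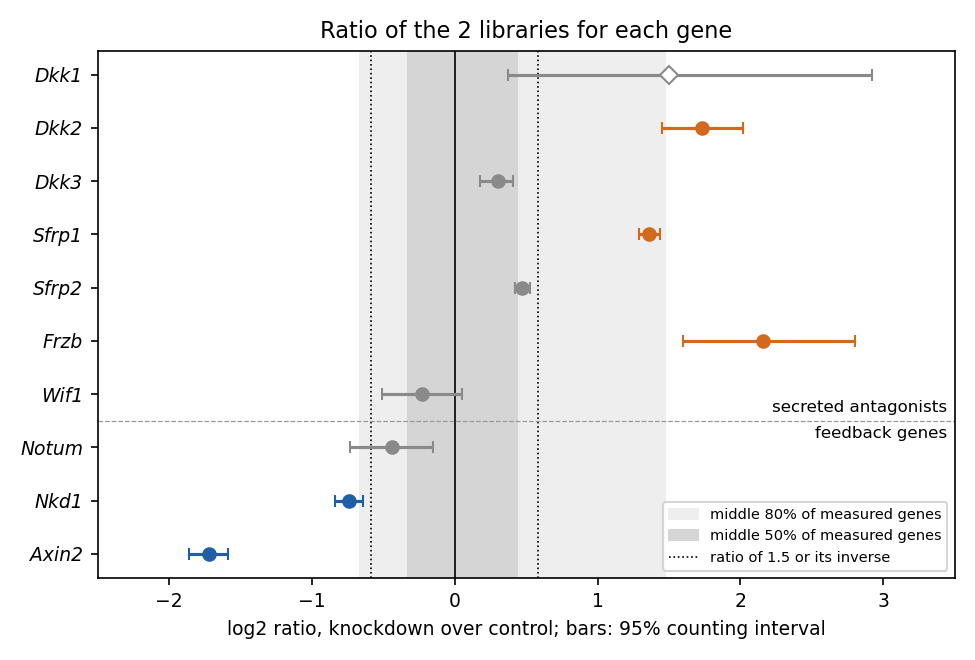
Log2 ratio of knockdown over control (x axis) for each of the 10 genes, with 95% counting intervals as bars; orange is higher, blue lower, grey neither, and the open diamond is Dkk1, under the read minimum. Frzb (2.16), Dkk2 (1.73) and Sfrp1 (1.36) lie right of the dotted line of the 1.5 ratio, Nkd1 (-0.74) and Axin2 (-1.72) left of its inverse, and the shaded bands hold the middle 50% and 80% of all measured genes.

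Among the SFRP proteins, which carry a Frizzled-like cysteine-rich domain and bind WNT ligands, Sfrp1 showed the clearest difference. Sfrp1 (NCBI gene 20377, chromosome 8, 23411383 to 23449632) was counted at 1936 reads in the control against 5276 in the knockdown library. Its level went from 19.5 FPKM (18.6 to 20.4) to 46.4 (45.2 to 47.7), which was 2.57-fold higher after scaling (log2 1.36, 1.29 to 1.44). Its count was large enough that the counting error was small, and 10.8% of measured genes had a higher ratio. Sfrp2 (NCBI gene 20319, chromosome 3, 83765750 to 83774314) was the most abundant of the 10 genes in both libraries. It had 4411 and 6488 reads, or 127 and 163 FPKM, a log2 ratio of 0.47 (0.42 to 0.53) that stayed short of the size rule. Frzb (also called Sfrp3; NCBI gene 20378, chromosome 2, 80411970 to 80447396), first described in cartilage, was scarce, with 30 control reads and 144 knockdown reads. That was 4.47-fold higher (log2 2.16), with a wide interval of 1.60 to 2.80 because the control count was low. The cartilage list was mixed in the same library. Acan (24 and 128 reads) and Comp (20 and 102 reads) were higher, Sox9 (1810 and 781 reads), which lung epithelium also expresses, was lower, and Col2a1 (1956 and 1522 reads, log2 -0.45), Col9a1 (269 and 382 reads, log2 0.42) and Matn1 (0 and 4 reads) were not past the rule. Like Frzb, Acan and Comp passed the read minimum only through the knockdown library, in which they were high. The part of cartilage in the Frzb value was not tested.

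The change was unequal within this family, and a ratio of 2 ratios shows it free of any library scaling. The knockdown-over-control ratio of Sfrp1 was 1.85 times that of Sfrp2 (1.74 to 1.98, exact conditional interval). That of Frzb was 3.26 times that of Sfrp2 (2.19 to 5.02) and 1.76 times that of Sfrp1 (1.18 to 2.71). Sfrp1 therefore made up more of what was measured. Its share of the summed FPKM of the 10 genes was 9.15% and then 18%, while Sfrp2 held 59.6% and 63.2%.

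The DKK genes also differed from each other. Dkk2 (NCBI gene 56811, chromosome 3, 132085266 to 132180304), whose protein binds LRP5/6 and can block or, in some settings, weakly activate the pathway, had 134 and 471 reads. This was 3.31-fold higher in the knockdown library (log2 1.73, 1.45 to 2.02), from 1.58 FPKM (1.33 to 1.87) to 4.86 (4.43 to 5.32). The intervals of the 2 levels were far apart. Dkk3 (NCBI gene 50781, chromosome 7, 112116019 to 112159482), a divergent member whose role in WNT signalling is less settled, had 1148 and 1494 reads, or 15.2 and 17.3 FPKM (log2 0.30, 0.18 to 0.41). The Dkk2 ratio was 2.70 times that of Dkk3 (2.19 to 3.35). Dkk1 (NCBI gene 13380, chromosome 19, 30545876 to 30549496), the best known LRP-blocking antagonist, was nearly silent, with 8 and 25 reads (0.158 and 0.431 FPKM). Its log2 ratio of 1.5 had an interval of 0.37 to 2.92, and it was under the read minimum. With a minimum of 10 reads it would count as higher.

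Wif1 (NCBI gene 24117, chromosome 10, 121034004 to 121100642), which binds WNT ligands through its WIF domain, was the only one of the 7 antagonists with a log2 ratio below 0. It had 230 and 208 reads, or 4.54 FPKM (3.97 to 5.17) and 3.59 (3.12 to 4.11). The log2 ratio was -0.23 and its interval, -0.51 to 0.05, held 0, so a difference in Wif1 was not detectable at this depth.

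The feedback genes were lower or near their control level. Axin2 (NCBI gene 12006, chromosome 11, 108917828 to 108950783) showed the largest drop of the 10, from 1743 to 559 reads. Its level was 18 FPKM (17.2 to 18.9) for the control and 5.06 (4.65 to 5.49) for the knockdown, 3.30-fold lower after scaling (log2 -1.72, -1.86 to -1.59). Only 1.56% of measured genes had a lower ratio. Nkd1 (NCBI gene 93960, chromosome 8, 88521342 to 88594887) went from 2118 to 1344 reads, or 22.3 to 12.4 FPKM, which was 1.67-fold lower (log2 -0.74, -0.84 to -0.64). It would not reach a ratio of 2. Notum (NCBI gene 77583, chromosome 11, 120653788 to 120661193) had 230 and 180 reads (log2 -0.44, -0.73 to -0.15), a difference under the size rule.

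The Axin2 ratio was lower than those of the other feedback genes. The ratio of Nkd1 was 1.98 times that of Axin2 (1.76 to 2.23), and the ratio of Notum was 2.44 times that of Axin2 (1.95 to 3.05). Notum and Nkd1 could not be separated (1.23, 0.997 to 1.52). Beside these values stand the medians of the lung epithelium list (-1.96) and the lung mesenchyme list (-1.23). Axin2 lies between them, and Nkd1 and Notum lie above both. The part of these lower lung markers in the feedback values was not tested.

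The widest contrasts set the antagonists with the highest measured ratios against Axin2, which had the lowest of the 10. These pairs are extremes picked from the same data, so a wide contrast between them was given in advance. In the control Sfrp1 and Axin2 stood at nearly the same level per length, with an FPKM ratio of 1.08, and in the knockdown library Sfrp1 was at 9.18 times the level of Axin2. The ratio of Sfrp1 was 8.50 times that of Axin2 (7.61 to 9.49), that of Dkk2 10.9 times (8.81 to 13.7) and that of Frzb 14.9 times (9.90 to 23.2). Some other antagonist and feedback pairs differed less, such as Wif1 over Notum (1.16, 0.874 to 1.53) and Dkk3 over Notum (1.66, 1.34 to 2.06). Of the 45 pairs among the 10 genes, 38 had an interval that excluded 1 and 7 did not. Pairs with Dkk1, which was under the read minimum, are included. The same share was not computed over pairs of all measured genes, so this count says nothing particular about the 10. The pair intervals are not adjusted for the number of pairs and cover counting error only.

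The order of levels per length changed accordingly. In the control it ran Sfrp2, Nkd1, Sfrp1, Axin2, Dkk3, Wif1, Notum, Dkk2, Frzb and Dkk1. The counting intervals of the neighbours Sfrp1 and Axin2, Wif1 and Notum, and Frzb and Dkk1 overlapped. In the knockdown library it ran Sfrp2, Sfrp1, Dkk3, Nkd1, Axin2, Dkk2, Wif1, Notum, Frzb and Dkk1, and the neighbours that overlapped were Axin2 with Dkk2 and Wif1 with Notum. Nkd1 moved from rank 2 to 4, Dkk3 from 5 to 3 and Dkk2 from 8 to 6, and Dkk3 did so without reaching the size rule. Summed over the 7 antagonists the level was 168 FPKM for the control and 238 for the knockdown, and summed over the 3 feedback genes it was 44.7 and 20.4 FPKM.

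**Figure D3:**
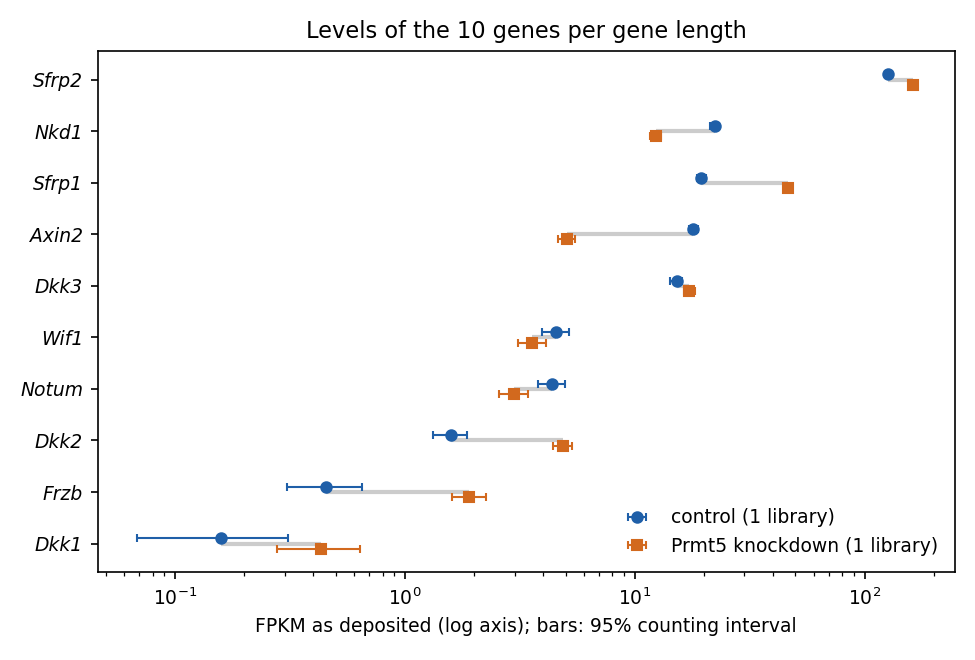
FPKM as deposited (log x axis) of the 10 genes, ordered by their control level, in the control (blue circles) and the knockdown library (orange squares), 1 library each; bars are 95% counting intervals and grey lines join the libraries. Sfrp1 and Axin2 sit close together in the control (19.5 and 18) and far apart in the knockdown library (46.4 and 5.06).

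Gene models can affect these levels. The length the authors used was 0.715 of the union of annotated GENCODE exons for Sfrp2 and 0.777 for Axin2, and between 0.902 and 1.01 for the other 8 genes. A length changes the level but not the ratio between libraries. Antisense genes overlap 29.4% of the exonic bases of Notum (Notumos; Myadml2os overlaps 8.7%), 16.1% of those of Sfrp2 and 3.8% of those of Axin2. The strand setting of the counting is not given in the sources used here, so reads of these partners cannot be told apart from those of the 3 genes.

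The rest of the WNT pathway was read from lists of ligands, receptors, transducers and targets, 83 genes in all without the 10, of which 66 were measured. Of these, 23 were lower and 10 higher (34.8% and 15.2%, against 12.3% and 20.7% of all measured genes), with a median log2 ratio of -0.46. These lists were also chosen with earlier results of these data known. Among 9 other secreted or membrane inhibitors 3 were higher and 1 lower (median 0.12). The higher ones were Kremen2, a DKK co-receptor (6 and 71 reads, log2 3.38), Sfrp5, a further SFRP (34 and 223 reads, 2.61), and Sost, an LRP-binding antagonist (20 and 93 reads, 2.11). Like Frzb, these 3 reached 50 reads only in the knockdown library. The lower one was Tpbg, a membrane inhibitor (910 and 402 reads, -1.26).

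Ligands and receptors went both ways. Of 9 measured ligands 3 were lower, Wnt7b (2915 and 592 reads, log2 -2.38), which is made by lung epithelium, Wnt2 (2827 and 740 reads, -2.02), which is made by lung mesenchyme, and Wnt11 (-0.84), while Wnt4 (1.40) and Wnt9a (0.83) were higher. Of 14 receptors and co-receptors 6 were lower, among them Fzd1 (-1.25), Fzd10 (-1.30) and Fzd7 (-0.93), and 2 higher, Fzd9 (2.32, at 50 reads or more only in the knockdown library) and Fzd5 (0.85). In the R-spondin and LGR list 3 of 8 were lower, Lgr6 (-2.40) and the receptor-removing ligases Rnf43 (-2.30) and Znrf3 (-1.12), and 2 higher, the pathway amplifier Rspo3 (2.04) and its receptor Lgr4 (1.17). Rnf43 (127 and 27 reads) reached 50 reads only in the control. Of the 2 genes for ligand lipidation and release, Porcn, the enzyme that adds the lipid, was lower (-0.95) and Wls (-0.13) was not past the rule.

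Target genes and TCF/LEF factors had lower members and no higher ones. Of 12 other commonly used target genes 7 were lower and none higher (median -0.94), among them Sp5 (534 and 108 reads, log2 -2.38), Tcf7 (2773 and 767 reads, -1.94) and Rnf43 (127 and 27 reads, -2.30). Rnf43 passed the read minimum only through the control, in which it was high. Of 8 TCF/LEF factors and co-activators 5 were lower and none higher (median -0.78), with Tcf7, Lef1 (-1.76) and Bcl9 (-0.85). Several genes stand in more than 1 of these lists. Among 10 cytoplasmic transducers Apc was lower (-0.60) and Dvl2 higher (1.5), and 8 were neither (median -0.39). The 3 feedback genes, with a median of -0.74, lay on the same side as these targets. The lung epithelium and mesenchyme lists were lower in the same library, and their part in the target values was not tested.

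**Figure D4:**
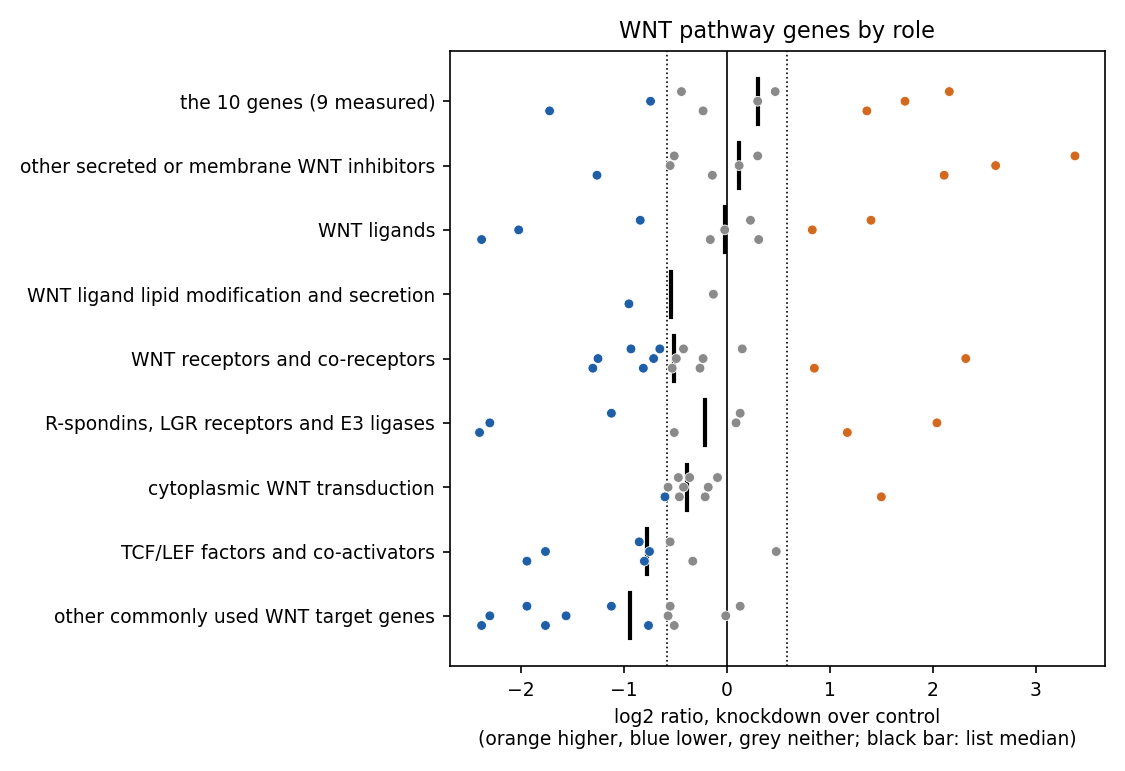
Log2 ratio of knockdown over control (x axis) of each measured WNT pathway gene by role (rows), with the 10 genes on top; each point is 1 gene, orange higher, blue lower and grey neither, the black bar is the median and dotted lines mark a ratio of 1.5 and its inverse. The target list (median -0.94) and the TCF/LEF list (median -0.78) hold no orange point, while the other inhibitors (median 0.12) hold 3. Those 3 genes passed the read minimum only through the knockdown library, in which they were high.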

How the data were processed

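Read counts per gene were deposited by the authors in a raw table, and FPKM values in a second table of the same 41709 entries, per the file headers. Per the submitters' processing notes, the build was mm10 and the tools were HTSeq 0.6.1, TopHat2 2.0.12 and Bowtie2 2.2.3. Strand setting and annotation are not given in the sources used. Deposited FPKM was the count over a gene length and the library total (lengths whole within 0.001 bp for 100% of 22831 genes with reads in both). Symbols came from RefSeq genes of GRCm38.p6 (40269 matched), and exons from GENCODE.

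Ratios used TMM sizes (edgeR 4.0.16, R 4.3.3; factors 1.04 and 0.963), a prior count of 0.5 and exact Clopper-Pearson intervals of the 2 counts given their sum. Intervals of levels were exact Poisson, and those of pairs exact conditional (scipy 1.17.1). With 1 library per group, intervals cover counting error only. Reads carry no molecular identifiers, so amplification copies cannot be told apart from separate molecules, and the intervals treat every read as separate. The rule was tried on simulated Poisson counts with no variation between animals or pools and no change in tissue make-up. That trial cannot show how the rule behaves where these are present. All 10 genes were named. Of each other WNT list up to 3 genes past the rule in each direction, by the interval bound nearest to 1, were named, and fewer of each marker list. Members, lists and rules were chosen with earlier results of these data known. With 2 libraries a gene's pattern is 1 ratio, so no genes of like pattern were sought. Alternatives covered scaling (DESeq2 1.42.0 among them), prior count, FPKM pseudocount, read minimum and ratio.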

Additional observations from a re-analysis of the deposited data

How the results depend on the processing

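Over 9 alternative settings and 1 more added after seeing the data (TMM over genes with control reads), none turned the direction of any of the 10 genes, of Prmt5 or of Shh. The read minimums of 10 and 200 and the ratio of 2 leave every log2 ratio as it is, so they could not turn a direction. The larger prior count and the pseudocounts only shrink a ratio. The other scalings shift all genes alike and by little. Wif1, nearest to no difference in the main setting, ranged from -0.34 to -0.16. The unchanged directions therefore add little support. Calls under the FPKM pseudocounts used the ratio alone, without an interval. Calls of the 10 genes changed in 2 cases. A ratio of 2 left 1 gene lower, Axin2, since Nkd1 did not reach it, and a minimum of 10 reads added Dkk1 as higher. A minimum of 200 reads left out Frzb and Dkk1. Log2 ratios ranged from 1.21 to 1.43 for Sfrp1, 1.18 to 1.79 for Dkk2, 1 to 2.23 for Frzb (lowest with an FPKM pseudocount of 1, which shrinks low genes), -0.85 to -0.67 for Nkd1 and -1.83 to -1.65 for Axin2. Total counts moved the median of all measured genes from -0.01 to -0.12, and the share of called genes that were higher from 62.7% to 52.3%. The 3020 higher genes became 1956 with a minimum of 200 reads, with fewer genes tested. With a ratio of 2 the 1795 lower genes became 703, and the 23 lower WNT pathway genes 12. Depth limits Dkk1 and Frzb most, whose intervals are the widest of the 10. No paired analysis was possible because there is 1 library per group, and for the same reason no replicate could be left out.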

Other observations

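Sums over whole families gave a view that single genes do not. The 5 SFRP genes (Sfrp1, Sfrp2, Sfrp4, Sfrp5 and Frzb) together summed to 6419 control reads and 12178 knockdown reads (log2 0.84, 0.80 to 0.88), or 148 and 217 FPKM. The 19 WNT ligand genes together had 9428 and 5090 reads (log2 -0.97, -1.02 to -0.92), or 122 and 58.9 FPKM. The summed SFRP level was therefore 1.21 times the summed ligand level in the control and 3.68 times in the knockdown library. A few abundant genes carry both sums. Sfrp2, which did not reach the size rule, had 127 and 163 FPKM. Wnt7b went from 37.7 to 6.69 FPKM, and Wnt2, also on the lung mesenchyme list, from 33 to 7.55. Of the 9 measured ligands 3 were lower and 2 higher. The part of the lower lung markers, and of the higher markers of other organs, in the SFRP and ligand sums was not tested. The 10 Frizzled genes summed to 197 and 106 FPKM (log2 -0.80) and the 4 TCF/LEF factors to 102 and 43.9 FPKM (log2 -1.04). These sums describe RNA of pools labelled as whole lung, in which ligand and antagonist may come from different cells. The knockdown library also held many reads of liver, heart and muscle marker genes.

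Some listed genes under the read minimum, named here after their values were seen, differed by more than counting error. Cer1, which encodes a secreted antagonist of WNT, BMP and Nodal ligands, had 49 and 4 reads (log2 -3.54, -5.63 to -2.25). Sfrp4 had 8 and 47 reads (log2 2.4, 1.38 to 3.76). The ligand genes Wnt9b (1 and 36 reads) and Wnt16 (1 and 38 reads) were close to silent in the control, with intervals of 2.52 to 10.43 and 2.6 to 10.5 on the log2 scale. Dkk4 had 0 reads in both libraries.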
